A study of Macaca fascicularis with 3 samples.

Results

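MYL1, TNNT3, TNNI2, TNNC2, MYBPC2, ACTN3 and MYOZ1 encode sarcomere proteins typical of fast-twitch muscle fibres, and their RNA was followed across nuclei of an eye muscle, the extraocular muscle (EOM), and of a thigh muscle, the quadriceps femoris (QFM), from the cynomolgus macaque, Macaca fascicularis. The genes were chosen by symbol, and each had a row in both nuclei tables, so that 7 of 38550 listed features are described. EOM and QFM each gave 1 library of nuclei, and a library of EOM cells is used only in the closing section. The labels give a tissue and no strain, age, sex or treatment, and leave the number of animals unstated. The QFM library is called nuclei in its title and single cells in the names of its files, so every EOM against QFM ratio may also compare nuclei with cells.

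In a striated muscle fibre, calcium binds troponin C, which releases the block that troponin I holds on the thin filament, while troponin T ties both to tropomyosin. Myosin of the thick filament then pulls, with its heavy chain setting much of the speed and its light chains and myosin-binding protein C tuning it, and the thin filaments are anchored at the Z-disc by alpha-actinin and its partners. Many of these proteins come in a fast and a slow isoform from separate genes, and limb muscle fibres usually carry matched sets, whereas extraocular fibres are known for myosins found in few other muscles, such as MYH13 and MYH15.

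Nuclei were grouped by the myosin heavy chain with most UMIs (unique molecular identifiers, each standing for 1 captured RNA molecule) among MYH3, MYH7, MYH13 and MYH15, where these 4 summed to at least 10 UMIs. MYH7 is the slow and cardiac beta chain, MYH13 the extraocular chain, MYH15 an ancient chain of extraocular fibres, and MYH3 the embryonic chain. The groups were EOM MYH7-led (173 nuclei), EOM MYH15-led (1569), EOM MYH3-led (1085), EOM MYH13-led (5462), QFM MYH7-led (2738) and QFM MYH3-led (4495), and no QFM nucleus was led by MYH13 or MYH15. The adult fast chains MYH1 and MYH2 and the perinatal chain MYH8 carry no symbol in these tables. Their sequences are close to that of MYH3, so what the MYH3 row counts is uncertain, above all in QFM. The EOM groups were mixed in their chains. MYH7 held 47.2% of chain UMIs in EOM MYH7-led nuclei and 94.2% in QFM MYH7-led nuclei, MYH15 held 54.9% in EOM MYH15-led, MYH13 61.9% in EOM MYH13-led, and MYH3 52.0% in EOM MYH3-led and 97.6% in QFM MYH3-led nuclei.

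After the barcode filter and removal of called doublets, 13975 EOM and 10525 QFM nuclei were kept, with medians of 2811 and 4508 UMIs. At least 10 chain UMIs were found in 61.6% of EOM and 68.8% of QFM nuclei, but also in 19.4% of EOM and 4.60% of QFM endothelial-like nuclei, whose cells make no sarcomeres. The share of nuclei in myofibre-like clusters was 97.7% of EOM MYH7-led, 91.8% of EOM MYH15-led, 70.5% of EOM MYH3-led, 60.9% of EOM MYH13-led, 98.9% of QFM MYH7-led and 96.7% of QFM MYH3-led nuclei. Endothelial-like levels are therefore given as one measure of background. Their sums hold every endothelial-like nucleus, including the 246 in EOM and 46 in QFM with at least 10 chain UMIs. Of these, nuclei without a tie are in the chain-led groups as well. Other clusters without a fibre name gave levels that differ from the endothelial-like ones by over 1.5 times. EOM mural-like nuclei held 1640.3 CPM of TNNT3 and 787 CPM of MYL1, against 559 and 343 CPM in EOM endothelial-like nuclei, and QFM satellite cell-like nuclei held 885 CPM of TNNC2, against 439 CPM in QFM endothelial-like nuclei. Each ratio to endothelial-like nuclei therefore depends on that choice of cells. Mural-like nuclei also made up 3.40% of the 8289 EOM chain-led and 4.45% of the EOM MYH13-led nuclei, and MYH13 held 65.1% of their own chain UMIs. They overlap the groups they are set beside, so their levels are not a clean background. Median depths were 3922 UMIs in EOM MYH7-led, 4137 in EOM MYH15-led, 3304 in EOM MYH3-led, 3700.0 in EOM MYH13-led and 2625 in EOM endothelial-like nuclei, and 5938.5 in QFM MYH7-led, 4815 in QFM MYH3-led and 3660.0 in QFM endothelial-like nuclei. The nuclei libraries shared 51 barcode sequences, and without those nuclei all 63 calls of the 7 genes in 9 comparisons were kept. Levels are CPM, the summed UMIs of a gene per 1000000 UMIs of a group, with a 95% Poisson interval where one is given, and log2 ratios carry a 95% conditional binomial interval. Since each group comes from a single library no test was made, the intervals cover counting error only, and a difference of at least 2-fold is called higher or lower.

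MYL1 encodes the fast essential (alkali) light chain, which wraps the neck of the myosin head. It stood at 519 CPM (467 to 576) in EOM MYH7-led, 2677 CPM (2639 to 2715) in EOM MYH15-led, 2296 CPM in EOM MYH3-led, 2293 CPM (2274 to 2311) in EOM MYH13-led, 243 CPM in QFM MYH7-led and 4721 CPM (4694 to 4748) in QFM MYH3-led nuclei. The endothelial-like levels were 343 CPM in EOM and 289 CPM in QFM. The QFM MYH3-led nuclei were highest and the 3 EOM groups led by MYH15, MYH3 and MYH13 came next, of which MYH3-led and MYH13-led did not differ beyond their intervals. EOM MYH7-led nuclei were 1.51-fold above EOM endothelial-like nuclei, but their interval overlapped the 498 CPM (457 to 542) of EOM satellite cell-like nuclei and they lay below the 787 CPM of EOM mural-like nuclei. QFM MYH7-led nuclei were at 0.839 times the endothelial-like level of QFM.

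The 3 fast troponins were also highest in QFM MYH3-led nuclei, but their order over the EOM groups was not that of MYL1. In EOM, TNNT3 and TNNI2 rose from MYH7-led through MYH15-led and MYH3-led to MYH13-led nuclei, while TNNC2 was highest in MYH3-led nuclei. That lead of TNNC2 over MYH13-led nuclei was small, at a log2 ratio of 0.12, and ranged from -0.13 to 0.26 under other settings. TNNT3, the fast troponin T, stood at 452 CPM in EOM MYH7-led, 1738 CPM in EOM MYH15-led, 2222 CPM in EOM MYH3-led, 2986 CPM in EOM MYH13-led, 289 CPM in QFM MYH7-led and 6760 CPM in QFM MYH3-led nuclei, against 559 CPM in EOM and 664 CPM in QFM endothelial-like nuclei. Both MYH7-led groups lay below the endothelial-like level of their own library. The EOM MYH15-led level was close to the 1640.3 CPM of EOM mural-like nuclei, some of which are themselves in the chain-led groups. TNNI2, the fast inhibitory subunit, was at 74.4 CPM (55.6 to 97.6), 179 CPM and 217 CPM in EOM MYH7-led, MYH15-led and MYH3-led nuclei, and at 242 CPM in EOM MYH13-led nuclei. In QFM it was at 73.2 CPM (69.3 to 77.2) in MYH7-led and 1076 CPM in MYH3-led nuclei, and the endothelial-like levels were 98.1 CPM in EOM and 194 CPM in QFM. The MYH7-led groups of the 2 muscles did not differ in TNNI2 beyond their intervals, and both stood below the endothelial-like level of their library.

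TNNC2, the fast calcium-binding subunit, was at 133 CPM in EOM MYH7-led, 286 CPM in EOM MYH15-led, 413 CPM in EOM MYH3-led, 380 CPM in EOM MYH13-led, 206 CPM in QFM MYH7-led and 2526 CPM in QFM MYH3-led nuclei. With 206 CPM in EOM and 439 CPM in QFM endothelial-like nuclei, TNNC2 had the smallest excess over endothelial-like nuclei of the 7 genes in EOM MYH13-led nuclei. Their level was 1.84-fold, and the QFM MYH3-led level 5.75-fold, that of endothelial-like nuclei of the same library. In satellite cell-like nuclei, those of the muscle stem cells, TNNC2 was at 324 CPM in EOM, within 2-fold of every EOM group except the MYH7-led one.

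MYBPC2 is the fast myosin-binding protein C of the thick filament. Its levels were 17.2 CPM (8.87 to 29.99) in EOM MYH7-led, 31.0 CPM (27.0 to 35.4) in EOM MYH15-led, 106 CPM (96.1 to 117) in EOM MYH3-led and 200.1 CPM (195 to 206) in EOM MYH13-led nuclei. In QFM they were 26.3 CPM in MYH7-led and 748 CPM in MYH3-led nuclei. Endothelial-like nuclei held 23.1 CPM in EOM and 49.9 CPM in QFM, so that the EOM MYH15-led level was 1.34-fold and the EOM MYH13-led level 8.67-fold that of endothelial-like nuclei. EOM mural-like nuclei, at 53.5 CPM, lay above the MYH15-led and below the MYH3-led and MYH13-led levels.

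ACTN3 is the alpha-actinin of fast fibres and crosslinks actin at the Z-disc. It was at 4.29 CPM (3 UMIs) in EOM MYH7-led, 5.23 CPM (37 UMIs) in EOM MYH15-led, 10.8 CPM (43 UMIs) in EOM MYH3-led and 29.0 CPM (756 UMIs) in EOM MYH13-led nuclei. In QFM it was at 145 CPM (2633 UMIs) in MYH7-led and 1489 CPM (36842 UMIs) in MYH3-led nuclei. Every EOM group lay below the 118 CPM of QFM endothelial-like nuclei. Of the EOM groups, only MYH13-led nuclei exceeded in ACTN3 the EOM endothelial-like level of 7.78 CPM (5.17 to 11.3) beyond the intervals, by 3.72-fold, while QFM MYH3-led nuclei exceeded theirs by 12.6-fold. EOM fibroblast or FAP-like nuclei held 15.4 CPM of ACTN3, below the MYH13-led and above the MYH3-led level, and QFM fibroblast or FAP-like nuclei held 167 CPM, above the QFM MYH7-led level.

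MYOZ1, a calsarcin that binds alpha-actinin and calcineurin at the Z-disc of fast fibres, had another pattern. Its levels were 58.7 CPM (42.1 to 79.6), 45.8 CPM (41.0 to 51.1), 57.6 CPM and 69.2 CPM in EOM MYH7-led, MYH15-led, MYH3-led and MYH13-led nuclei. They were 235 CPM in QFM MYH7-led and 490.3 CPM in QFM MYH3-led nuclei. The EOM groups lay within 2-fold of each other, but the MYH15-led level was below the MYH13-led one (66.1 to 72.5) beyond the intervals. The MYH7-led interval, a wide one from 41 UMIs, overlapped that of each of the others. MYOZ1 was the one gene of the 7 over 2-fold above endothelial-like nuclei in MYH7-led nuclei of both muscles, at 4.796-fold in EOM and 5.64-fold in QFM over endothelial-like levels of 12.2 and 41.7 CPM. Mural-like nuclei held 37.5 CPM in EOM and 93.1 CPM in QFM.

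**Figure D1:**
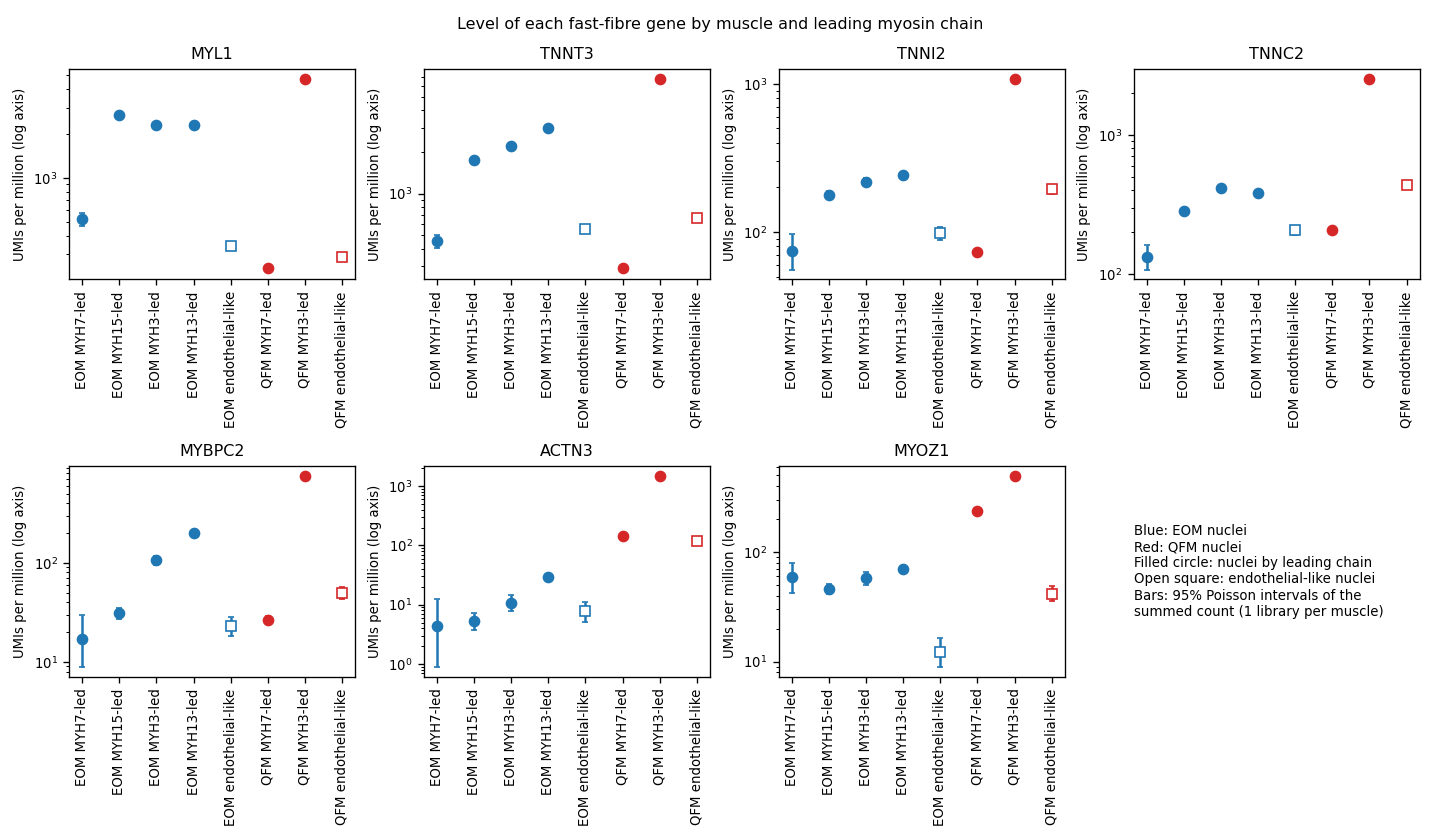
Level of each gene in CPM (log axis) in nuclei grouped by muscle and leading chain (filled circles, EOM blue, QFM red) and in endothelial-like nuclei of each library (open squares), with 95% Poisson intervals of the summed count. QFM MYH3-led nuclei are highest in all 7 panels, from 490.3 CPM for MYOZ1 to 6760 CPM for TNNT3, while ACTN3 in the EOM groups lies between 4.29 and 29.0 CPM.

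The fast-type groups of the 2 muscles were compared first. In EOM MYH13-led against QFM MYH3-led nuclei each of the 7 genes was lower, where 9.01% of 18488 genes were at least 2-fold lower and 32.8% at least 2-fold higher. The median log2 ratio was -2.15 over the 7 genes and 0.39 over all genes. The reductions were unequal. MYL1 stood at -1.04 (-1.06 to -1.03) and TNNT3 at -1.18 (-1.19 to -1.17), followed by MYBPC2 at -1.90 (-1.95 to -1.86), TNNI2 at -2.15 (-2.19 to -2.12), TNNC2 at -2.73 (-2.76 to -2.70) and MYOZ1 at -2.82 (-2.90 to -2.75). ACTN3 stood apart at -5.68 (-5.79 to -5.58), a 51.4-fold lower level in EOM. Relative to the median of all genes, MYL1 was at -1.44 and ACTN3 at -6.08. The calls on MYL1 and TNNT3 were close to the 2-fold limit. MYL1 was at -0.87 in myofibre-like clusters only, -0.86 with doublets kept and -0.95 in nuclei with at most 0.5% mitochondrial UMIs, where TNNT3 was at -0.96. In those 3 settings ACTN3 was at -5.54, -5.53 and -5.67.

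Against the same QFM MYH3-led nuclei, the other EOM groups gave 6 lower and 0 higher genes for EOM MYH15-led nuclei (13.5% of all genes lower and 24.3% higher), and 7 lower and 0 higher for EOM MYH3-led nuclei (10.6% lower and 28.6% higher). These comparisons share their QFM nuclei. Medians over the 7 genes were -3.14 for EOM MYH15-led and -2.61 for EOM MYH3-led nuclei, beside 0.18 and 0.31 over all genes. In EOM MYH15-led nuclei MYL1 was within 2-fold at -0.82, TNNT3 was at -1.96, MYBPC2 at -4.59 and ACTN3 at -8.15 (-8.66 to -7.69). In EOM MYH3-led nuclei, MYBPC2 was at -2.82 and ACTN3 at -7.11, while MYL1 was at -1.04, or -0.86 with doublets kept. Both groups held ACTN3 at or near the endothelial-like level of EOM, so these ratios are close to those of QFM MYH3-led to EOM endothelial-like nuclei. Over all chain-led nuclei, 8289 in EOM and 7233 in QFM, 5 of the 7 were lower in EOM and 0 higher (8.37% of all genes lower and 33.8% higher; medians -1.54 and 0.45), with ACTN3 at -5.37, and MYL1 (-0.28) and TNNT3 (-0.62) were within 2-fold.

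In the slow groups fewer genes passed 2-fold. Between EOM MYH7-led and QFM MYH7-led nuclei, 1 gene was at least 2-fold higher in EOM (28.9% of 13900 genes), 2 were lower (10.3%) and 4 within 2-fold. MYL1 was the higher one, at 1.098 (0.94 to 1.25), and it passed 2-fold neither with doublets kept (0.84) nor with median ratio scaling (0.79). The median was -0.62 over the 7 genes and 0.36 over all genes. MYOZ1 was lower at -2.00, and ACTN3 at -5.08 (-7.36 to -3.53), which rests on 3 EOM UMIs. TNNT3 at 0.64, TNNI2 at 0.02, TNNC2 at -0.63 and MYBPC2 at -0.62 were within 2-fold, and in both MYH7-led groups the values of these 4 were below the endothelial-like level of their library.

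**Figure D2:**
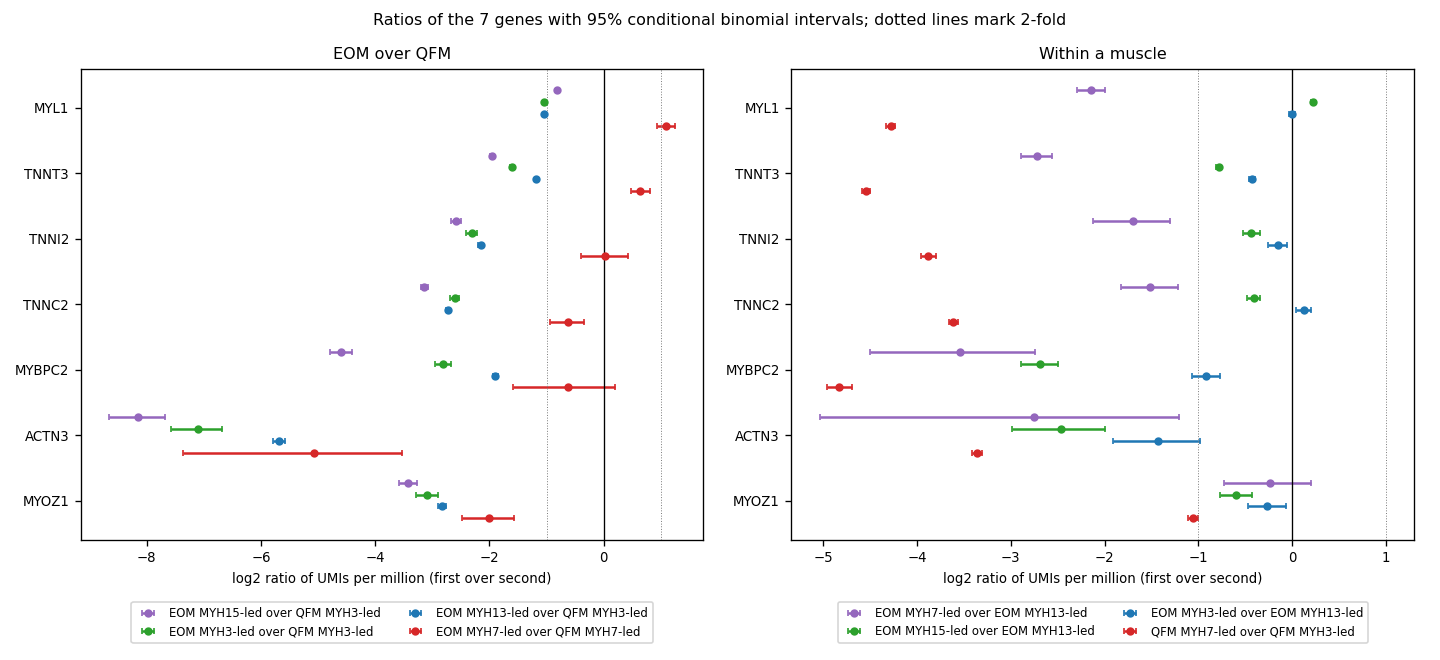
Log2 ratios of the CPM of the 7 genes between EOM and QFM groups (left) and between groups of 1 muscle (right), with 95% conditional binomial intervals and dotted lines at 2-fold. On the left ACTN3 lies farthest from 0 in every comparison, at -8.15 to -5.08, and on the right the QFM slow against fast ratios reach -4.83 for MYBPC2 while MYOZ1 is at -1.06.

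Within QFM, each of the 7 genes was lower in MYH7-led than in MYH3-led nuclei, where 13.3% of 16373 genes were lower and 5.61% higher, and the median was -3.88 over the 7 genes and -0.17 over all genes. The largest reductions were those of MYBPC2 (-4.83), TNNT3 (-4.55) and MYL1 (-4.28), followed by TNNI2 (-3.88), TNNC2 (-3.61) and ACTN3 (-3.36). MYOZ1 was at -1.06, and at -0.94 with doublets kept. Since the MYH7-led levels of MYL1, the troponins and MYBPC2 were below the endothelial-like level, their ratios may be limited by background, and with the endothelial-like level subtracted only ACTN3 (-5.68) and MYOZ1 (-1.21) could still be given. That ACTN3 value depends on the cells taken as background, since fibroblast or FAP-like nuclei exceeded the QFM MYH7-led level.

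The same contrast was smaller in EOM. Of the 7 genes, 6 were lower and 0 higher in EOM MYH7-led than in EOM MYH13-led nuclei (12.5% of 17224 genes lower and 17.4% higher), and MYOZ1 was within 2-fold at -0.24 (-0.72 to 0.21). MYBPC2 stood at -3.54 from 12 UMIs in the MYH7-led group, ACTN3 at -2.76 (-5.04 to -1.20) from 3 UMIs (-0.80 after thinning), TNNT3 at -2.72, MYL1 at -2.14, TNNI2 at -1.70 and TNNC2 at -1.51. For each of the 7 genes the EOM ratio was closer to 0 than the QFM ratio, by 0.60 for ACTN3 and 0.82 for MYOZ1 up to 2.18 for TNNI2, although the interval of ACTN3 in EOM covers its QFM ratio. The median was -2.14 over the 7 genes and 0.08 over all genes in EOM. Beside this, MYH7 held only 47.2% of chain UMIs in EOM MYH7-led nuclei against 94.2% in QFM MYH7-led nuclei, and the EOM MYH13-led levels of TNNI2 and TNNC2 were only 2.46 and 1.84 times those of endothelial-like nuclei. The part of chain mixing and of free RNA in the smaller EOM contrast was not tested.

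MYH15-led nuclei split the 7 genes. Compared with EOM MYH13-led nuclei, 2 of the 7 were lower and 0 higher (13.5% of 17795 genes lower and 3.16% higher). The median was -0.60 over the 7 genes and -0.12 over all genes. The lower ones were MYBPC2 at -2.69 (-2.89 to -2.50) and ACTN3 at -2.47 (-2.99 to -1.99). MYL1 was slightly higher at 0.22 (0.20 to 0.25), and TNNT3 (-0.78), MYOZ1 (-0.60), TNNI2 (-0.43) and TNNC2 (-0.41) were within 2-fold. With the endothelial-like level subtracted TNNT3 was at -1.04 and TNNC2 at -1.12. Myofibre-like clusters held 91.8% of EOM MYH15-led but 60.9% of EOM MYH13-led nuclei. In those clusters only, MYL1 was at 0.05 and TNNT3 at -0.96, so the slight excess of MYL1 depends on which nuclei are kept. In EOM MYH3-led against MYH13-led nuclei, ACTN3 at -1.43 was the 1 lower gene and 0 were higher (3.86% of 17578 genes lower and 3% higher). MYBPC2 was at -0.92 there, and at -1.05 in nuclei with at most 0.5% mitochondrial UMIs, while MYL1 was at 0.00.

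Whether these levels changed in steps was described over bins of chain share in myofibre-like nuclei, chosen after the data were seen. The myofibre-like clusters were named partly on members, MYBPC2 and ACTN3 included. In EOM, with MYH15 holding 0 to 5% of chain UMIs (2806 nuclei), then 5 to 20% (786), 20 to 50% (1352) and 50 to 80% (870), MYBPC2 was at 316, 106, 55.8 and 26.0 CPM. ACTN3 was at 38.8, 21.3, 9.39 and 3.53 CPM over the same bins. Both were lower at each step, with intervals that did not overlap, whereas MYL1 was at 2779, 2054, 2630 and 2734 CPM and showed no such order. TNNT3 was at 4104 CPM in the first bin and 2216, 1833 and 1821 CPM in the next. MYOZ1 was at 98.3, 58.6, 41.5 and 49.4 CPM over these bins. The highest bin, 80 to 100%, held 25 nuclei, and its ACTN3 value rests on 1 UMI. Nuclei rich in MYH7 were not set apart in these bins. Binned by MYH7 share instead, at 0 to 5%, 5 to 20%, 20 to 50% and 50 to 80%, EOM nuclei held 2814, 1230, 776 and 367 CPM of MYL1. MYOZ1 was at 72.3, 49.2, 58.1 and 55.8 CPM. The part of MYH7 in the steps over MYH15 share was not tested.

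In QFM the bins were made on the MYH7 share, with 3924, 340, 81, 92 and 2622 nuclei at 0 to 5%, 5 to 20%, 20 to 50%, 50 to 80% and 80 to 100%. Few nuclei lay between the ends. ACTN3 stood at 1602, 1089.8, 593, 215 and 143 CPM and MYL1 at 4989, 4367, 2187, 990.4 and 214 CPM. MYOZ1 spanned a narrower range, with 495, 572, 449, 267 and 235 CPM. TNNC2 was highest in the bin of 5 to 20%, at 6004 CPM, against 2128 CPM in the lowest bin. QFM myofibre-like cluster 2 (611 nuclei) held 8767 CPM of TNNC2, 8113 CPM of MYH3 and 1696 CPM of MYH7. Its median mitochondrial share was 1.818%, against 0.174% and 0.09% in clusters 5 and 6, which held 1435 and 1034 CPM of TNNC2. The part of this cluster in the bins was not tested. Whether doublets that were not called or free RNA fill the middle bins was not tested.

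**Figure D3:**
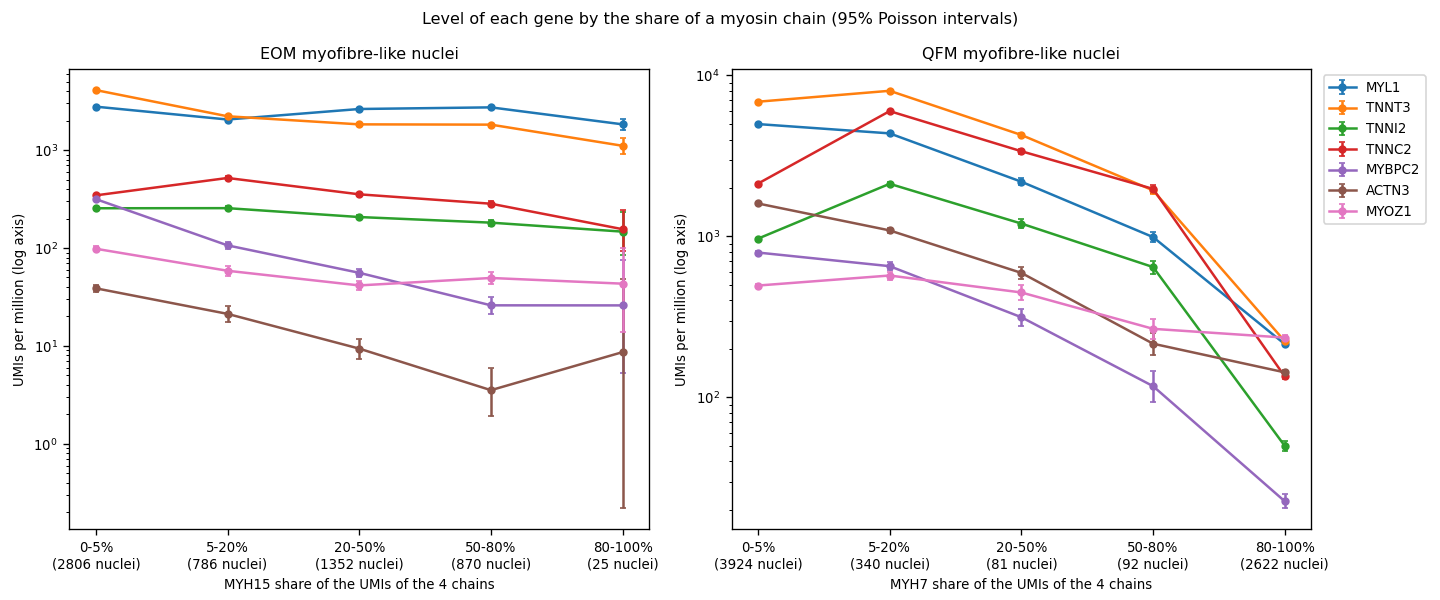
Level of each gene in CPM (log axis) in myofibre-like nuclei binned by the MYH15 share of chain UMIs in EOM (left) or the MYH7 share in QFM (right), with 95% Poisson intervals. In EOM the ACTN3 level is 3.53 CPM at 50 to 80% MYH15 and 38.8 CPM at 0 to 5%, while MYL1 is at 2734 and 2779 CPM in these bins and at 2054 CPM at 5 to 20%, and in QFM the last bin lies below the first for all 7 genes, least so for MYOZ1.

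Each gene except TNNT3 was also set against a paralog. For each pair the UMIs of the gene of fast fibres were taken as a share of both genes, which is not corrected for transcript length and is compared only across groups. Of the troponin pairs TNNI2 with TNNI1 and TNNC2 with TNNC1 summed, the fast genes held 34.7% (30.1 to 39.5) in EOM MYH7-led, 84.3% in EOM MYH15-led, 86.6% in EOM MYH3-led, 94.2% (93.9 to 94.6) in EOM MYH13-led, 18.9% in QFM MYH7-led and 94.4% (94.2 to 94.5) in QFM MYH3-led nuclei. The intervals of the fast-type groups of both muscles overlapped, although TNNI2 was 4.45-fold and TNNC2 6.65-fold lower in EOM MYH13-led than in QFM MYH3-led nuclei. Pair by pair, TNNI2 held 97.7% (97.3 to 98.0) in EOM MYH13-led and 99.0% (98.8 to 99.1) in QFM MYH3-led nuclei, and TNNC2 held 92.2% and 92.6%. Endothelial-like nuclei gave 92.4% in EOM and 84.3% in QFM. TNNT1, the slow troponin T, carries no symbol, so TNNT3 has no pair. Of the partners, MYBPC1 and ACTN2 were also abundant in fast-type nuclei. MYBPC1 was at 11602 CPM in QFM MYH7-led and 12267 CPM in QFM MYH3-led nuclei (log2 -0.08). In EOM it was at 4169 CPM in MYH7-led and 3581 CPM in MYH13-led nuclei. ACTN2, the alpha-actinin of all fibres, was at 555 CPM in EOM MYH7-led and 505 CPM in EOM MYH13-led nuclei (log2 0.14). In QFM ACTN2 was over 2-fold higher in slow nuclei, at 7770 CPM in MYH7-led and 3045 CPM in MYH3-led nuclei. Shares of MYBPC2 and ACTN3 are therefore not shares of fast against slow isoforms.

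At the light chain, MYL1 held 86.2% of MYL1 and MYL3 UMIs in EOM MYH7-led and 21.9% in QFM MYH7-led nuclei, and 99.8% in EOM MYH13-led and 97.6% in QFM MYH3-led nuclei. Endothelial-like nuclei gave 99.4% in EOM and 84.5% in QFM. MYL3, the slow essential light chain, was at 83.0 CPM in EOM MYH7-led and 866 CPM in QFM MYH7-led nuclei. The shares of the Z-disc genes differed between the muscles, in the fast groups and in endothelial-like nuclei alike. MYOZ1 held 34.2% (33.0 to 35.5) of MYOZ1 and MYOZ2 in EOM MYH13-led nuclei and 89.2% (88.7 to 89.7) in QFM MYH3-led nuclei, or 59.2% and 93.8% where the leading chain held at least 80% of chain UMIs, and ACTN3 held 5.43% of ACTN3 and ACTN2 in EOM MYH13-led and 32.8% in QFM MYH3-led nuclei. MYBPC2 held 5.29% and 5.74% of MYBPC2 and MYBPC1 in EOM MYH13-led and QFM MYH3-led nuclei. Endothelial-like nuclei gave 29.3% in EOM and 67.1% in QFM for MYOZ1, 9.18% and 31.7% for ACTN3, and 4.01% and 5.63% for MYBPC2. In EOM MYH15-led nuclei these shares were 7.54% for MYOZ1, 0.682% for ACTN3 and 0.403% for MYBPC2.

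**Figure D4:**
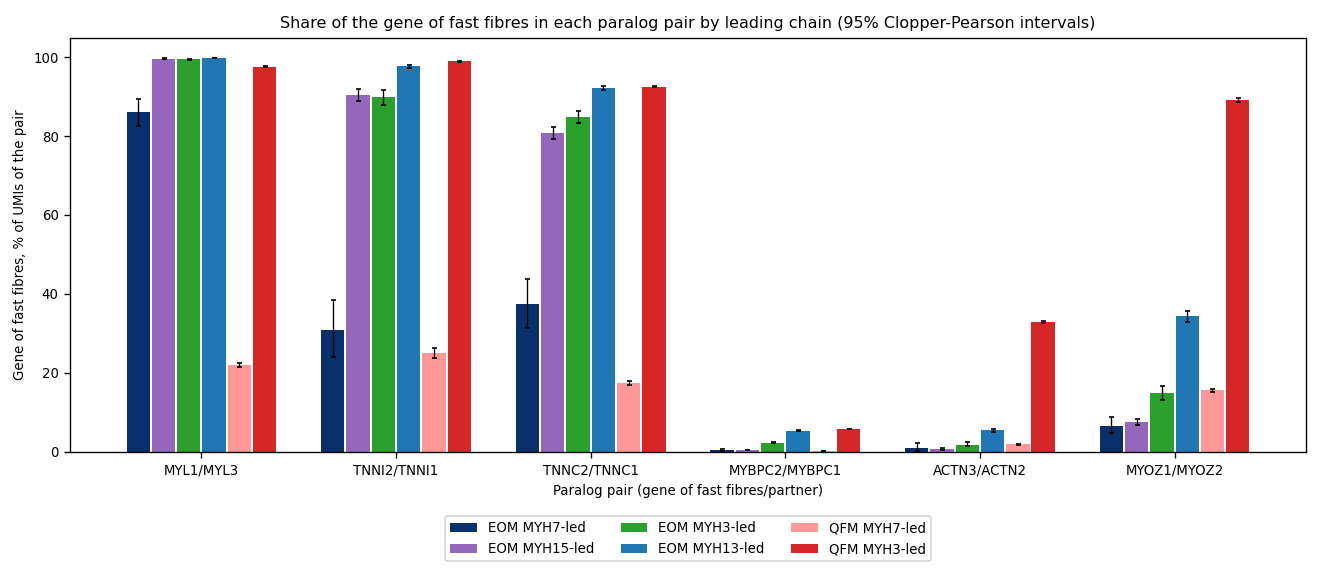
Share of the gene of fast fibres in the UMIs of each paralog pair (percent) in the 6 groups, with 95% Clopper-Pearson intervals. MYL1, TNNI2 and TNNC2 exceed 92% of their pairs in EOM MYH13-led and in QFM MYH3-led nuclei, while MYOZ1 is at 34.2% in EOM MYH13-led and 89.2% in QFM MYH3-led nuclei, and ACTN3 at 5.43% and 32.8%.

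Other genes of fast and slow fibres were read from listed sets, of which 13 of 17 fast and 12 of 14 slow genes were found under the listed symbol. The fast light chain MYLPF has a row as MYL11 and is not among the 13. MYL11 was at 543 CPM in EOM MYH13-led and 4188 CPM in QFM MYH3-led nuclei, lower in EOM as the 7 genes were. In EOM MYH13-led against QFM MYH3-led nuclei, 7 of 13 other fast genes passed 2-fold upwards, 2 were lower and 4 changed less. Of all genes, 32.8% were higher and 9.01% lower. The list had a median of 1.06, beside -2.15 for the 7 members and 0.39 for all genes. It is not made of sarcomere genes alone, and its higher genes included ACTN1 (1.11), MYLK4 (1.06) and the regulators EYA1 (1.24) and TBX15 (1.12). The row named MYH4, the chain of type IIb fibres, was at 1012 CPM in EOM MYH13-led and 7.19 CPM in QFM MYH3-led nuclei (log2 7.14). Whether that row also counts fast chains that carry no symbol was not tested. The calcium buffer PVALB was at 176 and 6.51 CPM (4.76). ATP2A1, the fast calcium pump, was within 2-fold at -0.60, and MYLK2, the muscle light chain kinase, was lower at -5.10. The second lower gene was PFKFB1, a phosphofructokinase-2 isoform, at -10.84 from 12 UMIs in EOM MYH13-led and 20866 UMIs in QFM MYH3-led nuclei. Of the slow genes in this comparison, 3 of 12 were higher, 5 lower and 4 within 2-fold (median -0.65).

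The medians of the lists in the slow against fast contrast had the same sign in both muscles. In EOM MYH7-led against MYH13-led nuclei, 9 of 12 slow genes were higher, 0 lower and 3 within 2-fold (median 2.65, where 17.4% of all genes were higher and 12.5% lower), with TNNI1, the slow troponin I, at 4.87, MYL3 at 3.91, MYL2 at 3.15 and TNNC1, the slow troponin C, at 2.79. Of 12 measured other fast genes, 1 was higher, 5 lower and 6 within 2-fold (median -0.90), including ATP2A1 at -2.28 and PVALB at -2.55. In QFM MYH7-led against MYH3-led nuclei, 9 of 12 slow genes were higher and 1 lower (median 2.85), and of 13 other fast genes 1 was higher and 5 lower (median -0.67), where 5.61% of all genes were higher and 13.3% lower. Single genes differed in sign between the muscles. The higher fast gene was MYLK2 in EOM, at 1.88 there and -1.33 in QFM, and MYLK4 in QFM, at -1.003 in EOM and 1.03 in QFM, and TNNT2 of the slow list was at 2.64 in EOM and -1.45 in QFM, the second from 11 UMIs in MYH7-led and 41 UMIs in MYH3-led nuclei. TNNT2, the cardiac and embryonic troponin T, was abundant in the EOM groups. It was at 1032 CPM in EOM MYH7-led, 863 CPM in EOM MYH15-led, 445 CPM in EOM MYH3-led, 166 CPM in EOM MYH13-led, 0.606 CPM in QFM MYH7-led and 1.66 CPM in QFM MYH3-led nuclei, with 64.2 CPM in EOM endothelial-like nuclei. Its order over the EOM groups was the reverse of that of TNNT3.

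To see how many nuclei carried each RNA, nuclei were cut at random to 1000 UMIs each. This left out 3 EOM MYH7-led, 31 EOM MYH15-led, 56 EOM MYH3-led, 339 EOM MYH13-led, 2 QFM MYH7-led and 6 QFM MYH3-led nuclei that were shallower. ACTN3 was then detected in 71.5% of QFM MYH3-led nuclei (96.3% before thinning), 13.01% of QFM MYH7-led, 2.52% of EOM MYH13-led and 0.325% of EOM MYH15-led nuclei, against 1.14% of EOM and 6.87% of QFM endothelial-like nuclei. MYL1 was detected in 85.4% of EOM MYH15-led and 80.5% of EOM MYH13-led nuclei, against 27.0% of EOM endothelial-like nuclei, and in 95.2% of QFM MYH3-led nuclei. MYOZ1 was found in 20.6% of QFM MYH7-led and 38.0% of QFM MYH3-led nuclei, against 3.13% of QFM endothelial-like nuclei. A median of 5 of the 7 genes was detected per nucleus in QFM MYH3-led nuclei, of which 60.8% held at least 5. The median was 2 in EOM MYH15-led, MYH3-led and MYH13-led nuclei, and 1 in both MYH7-led groups and in both endothelial-like groups.

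Over the 3 largest EOM myofibre-like clusters, ACTN3, MYBPC2, MYOZ1, TNNT3 and TNNI2 had the same order. Cluster 8 (1855 nuclei, poorest in MYH15) held 55.6 CPM of ACTN3, 408 CPM of MYBPC2 and 119.98 CPM of MYOZ1. Cluster 7 (1134 nuclei) held 9.17, 167 and 66.1 CPM of them, and cluster 6 (1580 nuclei, richest in MYH15) 4.98, 34.1 and 39.8 CPM. TNNT3 was at 4696, 3297 and 2190.0 CPM in clusters 8, 7 and 6, and TNNI2, which differed little, at 244, 228 and 227 CPM. MYL1 was between 2874 and 3344 CPM in these 3 clusters. The clusters were formed on all variable genes, were named partly on the members themselves, and are given as a description.

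TNNC2 and TNNI2 moved with the mitochondrial share of UMIs, which is seen here as an axis chosen after the data were seen. In QFM MYH3-led nuclei with 0 to 0.2%, 0.2 to 0.5%, 0.5 to 1% and 1 to 10% mitochondrial UMIs, TNNC2 was at 1088, 1683, 2862 and 12842 CPM and TNNI2 at 607, 862, 1216 and 4318 CPM. In EOM MYH13-led nuclei TNNC2 was at 215, 273, 450.2 and 864 CPM and TNNI2 at 167, 214, 239 and 442 CPM. ACTN3 did not rise, with 1590.2, 1406, 1199 and 1123 CPM in QFM MYH3-led and 28.3, 31.1, 26.8 and 25.1 CPM in EOM MYH13-led nuclei. In nuclei with at most 0.5% mitochondrial UMIs, TNNC2 was at -2.22 and TNNI2 at -1.70 in EOM MYH13-led against QFM MYH3-led nuclei. Median mitochondrial shares were 0.419% in EOM MYH13-led and 0.142% in QFM MYH3-led nuclei, so the muscles differ on this axis, and its part in their ratios beyond that comparison was not tested.

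**Figure D5:**
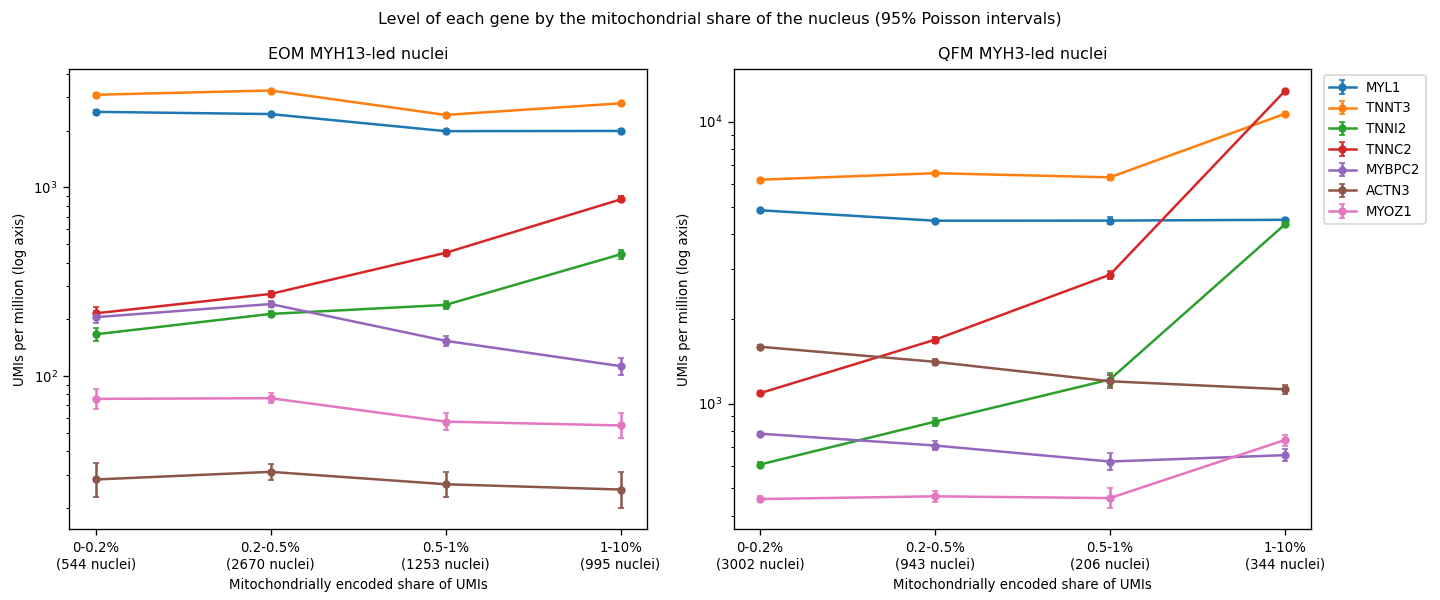
Level of each gene in CPM (log axis) by the mitochondrial share of a nucleus's UMIs in EOM MYH13-led (left) and QFM MYH3-led nuclei (right), with 95% Poisson intervals. TNNC2 climbs to 864 CPM in EOM and 12842 CPM in QFM in the bin of 1 to 10%, where EOM nuclei hold 25.1 CPM and QFM nuclei 1123 CPM of ACTN3.

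Across the 6 groups the profiles of log2(CPM + 5) of the 7 genes formed a gradient, and no grouping was tested. As a description over 6 points that come from 2 libraries, Pearson's r was 0.97 between MYL1 and TNNT3, 0.98 between TNNI2 and TNNC2, and 0.98 between ACTN3 and MYOZ1. It was 0.94 between TNNT3 and TNNI2, 0.94 between TNNI2 and MYBPC2, 0.93 between TNNC2 and MYBPC2, 0.86 between MYL1 and TNNI2 and 0.79 between TNNC2 and ACTN3, but 0.19 between MYL1 and ACTN3 and 0.01 between MYL1 and MYOZ1. Among 4449 other genes with at least 50 CPM in a group, the profiles most like each member were searched. They were EFCAB2 and LSP1 for MYL1, SUN1 and KIAA0319L for TNNT3, TMEM266 and IRF2 for TNNI2, ENTREP1 and MYL11 for TNNC2, PTPRA and ANKRD46 for MYBPC2, N4BP2L2 and RORA for ACTN3, and ADSS1 and STK40 for MYOZ1, with r between 0.979 and 0.998. Taken as the highest of 4449 over 6 points, such r values are favoured by the search itself. They also do not compare the size of a change, since PTPRA ranged from 133 to 176 CPM and MYBPC2 from 17.2 to 748 CPM. MYL11 is the current symbol of the fast regulatory light chain MYLPF. LSP1 lies next to TNNI2 in the RefSeq annotation of assembly T2T-MFA8v1.1.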

How the data were processed

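Nuclei of EOM and of QFM and cells of EOM were each measured in 1 library, which per the labels' protocols was read from both ends on a NovaSeq. The deposited tables hold unnormalized UMI counts for each gene in each barcode. Per the submitters' processing notes, the tools were Cell Ranger 7.2.0 and Seurat 5.2.1, listed without their roles. The sources used here give neither the genome build nor the use of intronic reads. Barcodes deposited for nuclei numbered 16491 for EOM and 12503 for QFM, with 61618999 and 72590186 UMIs.

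Barcodes with at least 200 genes, at least 500 UMIs and at most 10% mitochondrial UMIs were kept (16473 EOM, 12391 QFM). Scrublet, run in scanpy 1.11.5 with an expected rate of 6%, called 15.2% and 15.1% of them doublets, which were removed. Leiden clustering at resolution 1 on 30 principal components of 2000 variable genes gave 27 EOM and 22 QFM clusters, named from marker lists. MYBPC2 is 1 of the 10 general myofibre markers. The type II fibre markers, which also gave the name myofibre, include TNNT3, TNNI2, TNNC2, MYBPC2 and ACTN3. Myofibre-like clusters were thus named partly on the members themselves. Chain-led groups needed 10 UMIs over the 4 chains, ties (325 EOM, 6 QFM) were left out, and groups had at least 50 nuclei. Counts were summed per group, scaled to CPM over all genes, and compared as log2 ratios where the 2 sums together held at least 20 counts. A count of 0 was read as 3. Intervals are exact Poisson, conditional binomial and Clopper-Pearson (scipy 1.17.1), and the script that makes them was tested on simulated data. PCR and free RNA add errors these intervals do not cover. Groups of 1 muscle come from the same library, and with 1 library per group no test was made.

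The members and gene lists were chosen with earlier results of these data known. The text names every member in each group, examples of the listed fast and slow genes with a symbol, and the 2 genes with the profile most like each member. Of the lists, CASQ1, TMOD4, TPM1, TNNT1 and TPM3 were not found by symbol here. MYLPF was not found under that symbol either, but has a row as MYL11, which the list counts leave out. Alternatives covered the myosin minimum, the chains ranked, the barcode filter, doublets, myofibre-like clusters, thinning, leading chain share and scaling. The mitochondrial limit, the subtraction of endothelial-like levels, the removal of shared barcodes and the bins were chosen after the data were seen. Gene sequences were not used here.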

Additional observations from a re-analysis of the deposited data

Results flagged for a closer look

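The library of EOM cells enters no comparison, and all 7 genes gave signal in it above the 3 counts that a count of 0 allows. Over 7299 cells left by the barcode filter, MYL1 was at 322 CPM (3237 UMIs), TNNC2 at 73.7 CPM, TNNT3 at 39.5 CPM, TNNI2 at 30.5 CPM, ACTN3 at 11.5 CPM, MYOZ1 at 3.28 CPM and MYBPC2 at 0.795 CPM (8 UMIs). MYL1 was found in 3.82% of the cells, with up to 447 UMIs in 1 cell, and ACTN3 in 1.34%. The library had no group to be set against, and the source of this signal was not tested.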

How the results depend on the processing

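No paired analysis was possible because each group has 1 library. Of 822 log2 ratios of the 7 genes under 14 other settings, 801 stayed on the same side of 2-fold, 21 did not and 0 turned to the opposite call. Of the changed calls 11 were of MYL1. Its ratio in EOM MYH13-led against QFM MYH3-led nuclei ranged between -1.45 and -0.86 and that of TNNT3 between -1.42 and -0.96, while TNNC2 kept within -3.59 to -2.22 and ACTN3 within -6.17 to -5.53. MYOZ1 in QFM MYH7-led against MYH3-led nuclei passed 2-fold neither with doublets kept (-0.94) nor with thinning or median ratio scaling (-0.93 each). ACTN3 in EOM MYH7-led against EOM MYH13-led nuclei was at -0.80 after thinning, where few UMIs are left. The count of higher genes in EOM MYH7-led against QFM MYH7-led nuclei was 0 in place of 1 with doublets kept, with median ratio scaling, without the 50 most abundant genes and with endothelial-like levels subtracted, and the count of lower genes there was 1 in place of 2 after subtraction. Subtraction left few genes above background in MYH7-led nuclei. It gave 1 lower gene of 2 in EOM MYH7-led against EOM MYH13-led nuclei, in place of 6 of 7, and 2 of 2 in QFM MYH7-led against QFM MYH3-led nuclei, in place of 7 of 7. In EOM MYH3-led against EOM MYH13-led nuclei the count of lower genes was 2 in place of 1 after subtraction and with at most 0.5% mitochondrial UMIs. A leading chain with at least 80% of chain UMIs could be used in 3 of 9 comparisons, since too few EOM nuclei passed it, and MYOZ1 then held 59.2% of its pair in EOM MYH13-led nuclei in place of 34.2%. With all genes of at least 1 count in the background, the lower share was 14.7% in place of 9.01% in EOM MYH13-led against QFM MYH3-led nuclei and 12.8% in place of 8.37% over all chain-led nuclei, and the higher share was 56.2% in place of 28.9% in EOM MYH7-led against QFM MYH7-led nuclei. Depth limits ACTN3 and MYBPC2 in EOM MYH7-led nuclei, with 3 and 12 UMIs.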
